A study of Homo sapiens with 12 samples.

Results

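Nuclear genes for the subunits of the oxidative phosphorylation machinery were followed in THP-1 cells, a human monocytic leukaemia line, at 37 °C and 40 °C and with and without a microRNA inhibitor. Mitochondria make most of their ATP by passing electrons from NADH and succinate along complexes I to IV of the inner membrane to oxygen, and by letting the protons pumped on the way return through complex V, the ATP synthase. Complex I (NADH dehydrogenase) and complex II (succinate dehydrogenase) take up electrons, complex III passes them to the soluble carrier cytochrome c, and complex IV (cytochrome c oxidase) hands them to oxygen. In macrophages this chain also sets the succinate pool and the output of mitochondrial oxygen radicals, both known to bear on inflammatory activation.

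The genes were chosen by symbol from the array's gene table: those beginning NDUFA, NDUFB, NDUFC, NDUFS or NDUFV with a digit, SDHA to SDHD, those beginning UQCR or ATP5, the COX4 to COX8 families, CYC1 and CYCS. Each was represented by 1 probe set, the one with the highest mean over the 12 arrays among probe sets of exactly 1 symbol. This gave 84 of 18132 genes, with 35 in complex I, 3 in complex II, 9 in complex III, 17 in complex IV, 19 in complex V and CYCS, the cytochrome c gene. SDHB and UQCRFS1 were not analysed here. Of the 84 members, 81 passed the filter on dim probe sets (a mean log2 of 4.48, the 30th percentile) and were tested among 13909 genes. The 3 that did not pass were COX7A1 and COX7B2, forms of complex IV subunits used in other tissues, and ATP5MGL, a relative of the complex V gene ATP5MG.

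The 12 Affymetrix PrimeView arrays form 4 groups of 3, all of THP-1 cells differentiated with 100 ng/ml of the phorbol ester PMA for 48 hours. Cells of the temperature experiment were at 37 °C or at 40 °C. The protocol lists harvests at 2, 8 and 24 hours without saying which was used for the arrays. For the other experiment the protocol has cells differentiated at 40 °C, nucleofected with a 2'-O-methylated hairpin inhibitor of a microRNA (miR-142, miR-143 or ThermoMIR-1) or a non-human control. A plasmid for GFP was given with it, and GFP-positive cells were sorted after 24 hours. The arrays of that experiment are labelled siThermomir in the treatment field and siRNA in the title (called inhibitor here), or control and WT (called control). Which microRNA was blocked, and whether the controls received the control hairpin, is not stated for the arrays. No label says that replicates are separate cultures, so the p-values measure only how these arrays differ within a group, a spread that may be technical, and 3 arrays a group limit the precision. In bulk RNA, fewer cells with a transcript and less transcript per cell cannot be told apart.

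The arrays of the control and inhibitor groups stood apart from each other in technical measures. Poly-A spikes, RNAs added during labelling, read 6.98 to 7.64 (log2) on control arrays and 5.50 to 6.08 on inhibitor arrays, against 7.85 to 7.98 on those of the temperature experiment. The 3' minus 5' difference of GAPDH, a measure of RNA integrity and labelling, was 0.99 to 1.06 in controls, 0.62 to 0.78 with inhibitor and 0.36 to 0.56 in the temperature experiment, and that of ACTB was 2.36 to 2.53, 2.56 to 2.88 and 1.38 to 1.82. Of the markers of the labelled cell type, 9 monocyte and macrophage genes were measured, with means between 5.75 (SPI1) and 13.02 (TYROBP). Their log2 levels summed to 89.11 at 37 °C, 91.05 at 40 °C, 89.69 in controls and 84.73 with inhibitor. By group means, 7 of the 9 were higher and 2 lower at 40 °C than at 37 °C, 1 higher and 8 lower with inhibitor than in controls, and 4 higher and 5 lower in controls than at 40 °C. In that order of groups the means were 8.82, 9.05, 7.26 and 6.47 for CD14, 10.40, 10.11, 10.32 and 7.98 for LYZ, 10.79, 11.01, 12.42 and 11.93 for CD68 and 10.33, 10.64, 10.09 and 10.37 for CSF1R, the 1 that was higher with inhibitor. Of 15 markers of erythroid, lymphoid, fibroblast and epithelial cells, the highest mean was 6.80, for NKG7. The part of these differences in the results was not tested.

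Genes of the respiratory chain are known to share promoter elements for NRF1, for ETS factors such as GABP, and for YY1, which makes their promoters of interest where members move together. RefSeq promoters (GRCh38.p14, 250 bases before to 50 after the start) were at hand for 68 of the 84 members and were searched on both strands for fixed letters. The NRF1 letters GCGCATGCG occurred in 10 of the 68 (14.7%), against 2.10% of 27305 promoters in the table. The ETS letters CCGGAAG occurred in 19 (27.9%, against 10.7%) and the YY1 letters AAGATGGCG in 7 (10.3%, against 1.85%). A cyclic AMP response element, TGACGTCA, occurred in 4 (5.88%, against 1.98%), the ERR letters TCAAGGTCA in 1 (1.47%, against 0.359%) and the heat shock letters GAANNTTC in 4 (5.88%, against 6.87%). These shares are descriptions without a test. NRF1 letters on both strands overlap where the palindrome is complete, and such a promoter was counted once.

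The 250 bases upstream of the start are shown for 6 members that the results below turn on, a choice made after their values were seen, with matches in capitals. UQCRC2 had the largest decrease at 40 °C and NDUFB2 the largest increase, COX5B the largest decrease with inhibitor, and ATP5F1C fell in both experiments. NDUFB8 moved in opposite directions in the experiments, and ATP5MC2 was the complex V member that rose with inhibitor. The capitals mark NRF1 letters in ATP5F1C and ATP5MC2, ETS letters in COX5B and the cyclic AMP response element in NDUFB2. A second ETS match of COX5B runs past the start and is not marked. The windows of UQCRC2 and NDUFB8 hold none of the 6 motifs. The coordinates are chr16:21953111-21953360 (plus strand) for UQCRC2, chr7:140696458-140696707 (plus) for NDUFB2, chr2:97645812-97646061 (plus) for COX5B, chr10:7787927-7788176 (plus) for ATP5F1C, chr10:100529924-100530173 (minus) for NDUFB8 and chr12:53676084-53676333 (minus) for ATP5MC2.
UQCRC2: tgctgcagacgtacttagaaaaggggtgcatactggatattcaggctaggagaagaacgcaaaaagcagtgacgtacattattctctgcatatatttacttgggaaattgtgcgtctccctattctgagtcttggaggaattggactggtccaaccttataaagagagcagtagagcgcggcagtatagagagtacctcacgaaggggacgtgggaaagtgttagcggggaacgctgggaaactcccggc
NDUFB2: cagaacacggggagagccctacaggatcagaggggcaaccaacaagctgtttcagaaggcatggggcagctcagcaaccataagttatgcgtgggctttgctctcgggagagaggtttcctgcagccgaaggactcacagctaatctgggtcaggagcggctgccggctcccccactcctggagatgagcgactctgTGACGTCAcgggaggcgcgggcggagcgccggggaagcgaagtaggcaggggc
COX5B: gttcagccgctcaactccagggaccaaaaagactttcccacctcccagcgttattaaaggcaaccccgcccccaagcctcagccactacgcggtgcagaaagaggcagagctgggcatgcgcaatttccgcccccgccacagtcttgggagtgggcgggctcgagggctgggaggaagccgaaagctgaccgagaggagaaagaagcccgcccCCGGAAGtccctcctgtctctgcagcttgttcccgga
ATP5F1C: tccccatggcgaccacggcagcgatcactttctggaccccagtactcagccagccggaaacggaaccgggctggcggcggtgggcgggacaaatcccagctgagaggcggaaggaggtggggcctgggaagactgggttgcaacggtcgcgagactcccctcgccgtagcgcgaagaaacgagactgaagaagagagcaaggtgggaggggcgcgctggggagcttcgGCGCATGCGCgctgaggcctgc
NDUFB8: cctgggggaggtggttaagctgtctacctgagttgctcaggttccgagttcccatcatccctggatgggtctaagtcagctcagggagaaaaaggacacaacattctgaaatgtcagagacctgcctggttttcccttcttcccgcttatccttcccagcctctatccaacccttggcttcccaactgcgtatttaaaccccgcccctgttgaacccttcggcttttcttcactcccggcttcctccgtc
ATP5MC2: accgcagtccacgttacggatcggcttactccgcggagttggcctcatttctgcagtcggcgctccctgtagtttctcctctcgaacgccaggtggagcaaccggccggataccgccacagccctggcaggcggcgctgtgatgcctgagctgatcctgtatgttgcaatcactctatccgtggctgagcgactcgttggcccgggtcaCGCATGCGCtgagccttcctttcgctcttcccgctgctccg

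Members holding NRF1 letters were spread over the calls. At 40 °C they were in 1 of 7 promoters of members called higher, 2 of 11 called lower and 7 of 49 not called. With inhibitor they were in 3 of 7, 3 of 19 and 4 of 41. YY1 letters were in 0 of 7 members called higher with inhibitor, 4 of 19 called lower and 3 of 41 not called. At 40 °C they were in 0 of 7, 1 of 11 and 6 of 49. ETS letters were in 1 of 7, 3 of 11 and 15 of 49 at 40 °C, and in 1 of 7, 7 of 19 and 11 of 41 with inhibitor. A link between motif and direction was not tested.

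The first comparison asked which subunit transcripts differ in cells at fever-like temperature. Of the 81 members tested, 8 rose and 11 fell at 40 °C, which is 23.5% of them (9.88% up and 13.6% down). A call means a limma p, adjusted by Benjamini-Hochberg over 13909 genes, under 0.05. Of all genes tested, 39.3% were called (21.6% higher and 17.7% lower). The median difference of members was −0.02 on the log2 scale, where 1 is a 2-fold change, against 0.01 for all genes, and none reached 2-fold. The probe sets of members had a median log2 level of 11.38, and those of all tested genes 7.51. The count of 19 was 10 without replicate 1 at 37 °C, 11 without replicate 3 at 37 °C and 9 without replicate 2 at 40 °C. The 8 increases were 2 without replicate 1 at 37 °C or replicate 2 at 40 °C, 3 without replicate 1 at 40 °C and 4 without replicate 3 at 37 °C. The 11 decreases were 7 without replicate 2 or 3 of either temperature. With arrays centred on their medians 5 members were higher and 11 lower. With the trend and robust options of eBayes, 34 of the 81 were called, against 43.7% of all genes.

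**Figure D1:**
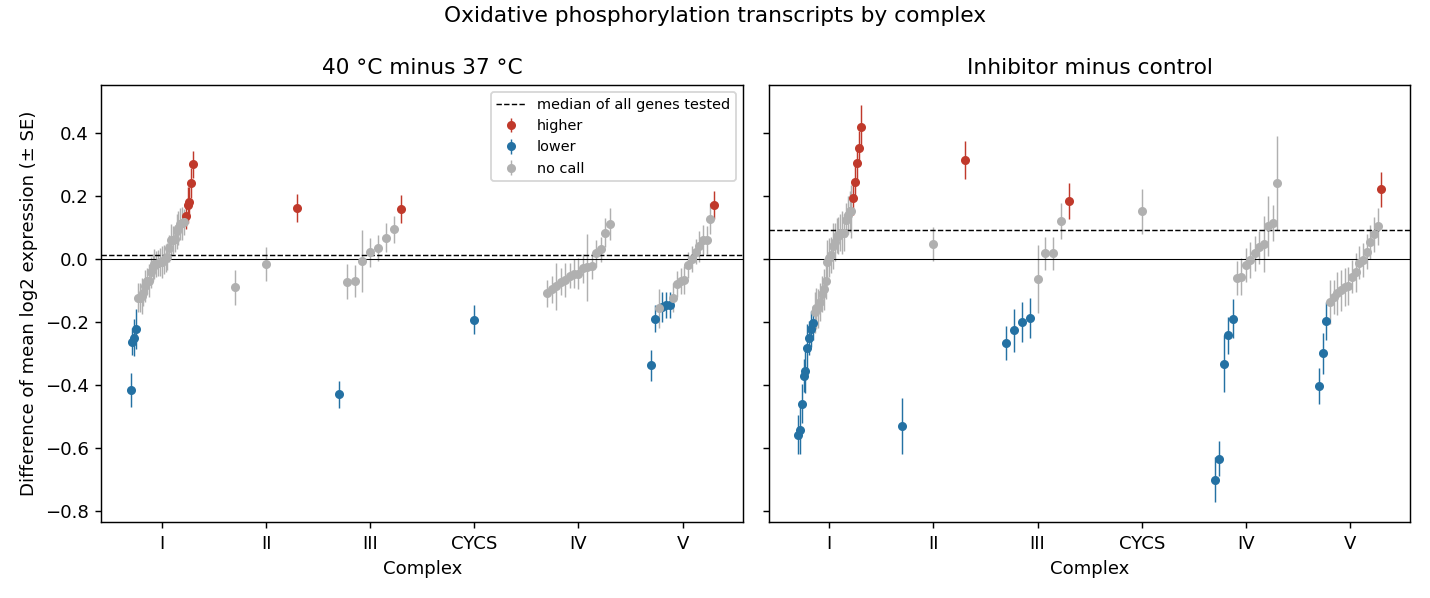
Difference of mean log2 expression (± SE of the fit, n = 3 arrays a group) of each of the 81 tested members, sorted within its complex, for 40 °C minus 37 °C (left) and inhibitor minus control (right). Red and blue points passed the adjusted threshold, grey points did not, and the dashed line is the median of all genes tested. At 40 °C the complex IV members lie between −0.11 and 0.11 with none called, while with inhibitor COX5B and COX7A2L lie lowest of all members at −0.70 and −0.63.

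In complex I, 5 of 35 members rose and 4 fell at 40 °C, with a median of −0.01. NDUFB8, an accessory subunit of the membrane arm, read 12.04, 12.08 and 12 at 37 °C and 11.69, 11.64 and 11.54 at 40 °C. All arrays at 40 °C lay below all at 37 °C, and the difference was −0.42 (SE 0.05, adjusted p = 0.000575). NDUFA10, another accessory subunit, fell by 0.26, from 10.28, 10.23 and 10.25 to 10.02, 9.98 and 9.97. NDUFB10, also of the membrane arm, fell by 0.25, and NDUFS1, the large iron-sulfur core subunit, fell by 0.22. The NDUFS1 call was lost without any of 4 of the 6 arrays (replicate 2 or 3 of either temperature), with a highest adjusted p of 0.0772.

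Other accessory subunits of complex I rose. NDUFB2 read 11.22, 11.18 and 11.17 at 37 °C and 11.50, 11.51 and 11.46 at 40 °C, a difference of 0.30 (SE 0.04, adjusted p = 0.000975), the largest increase of any member tested. NDUFA3 rose by 0.24, from 11.33, 11.40 and 11.40 to 11.63, 11.65 and 11.57. NDUFS8, an iron-sulfur core subunit, rose by 0.18, and NDUFB11 and NDUFA8 by 0.17 and 0.14. The calls of NDUFS8, NDUFB11 and NDUFA8 kept in 2, 1 and 0 of the 6 fits that left out 1 array. The 5 increases were 2 without replicate 1 at 37 °C or replicate 1 or 2 at 40 °C, and 3 without any other array. NDUFV1, the core subunit that binds NADH, was 0.06 (SE 0.05) higher and not called. Members that rose and members that fell thus stood side by side in 1 complex, also within the NDUFB genes.

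Complex II, complex III and cytochrome c had called members too. SDHA, the flavoprotein of succinate dehydrogenase, read 10.95, 10.97 and 10.96 at 37 °C and 11.16, 11.12 and 11.08 at 40 °C, a rise of 0.16 (adjusted p = 0.0204) that kept its call in 2 of 6 fits leaving out an array. SDHA has closely similar pseudogene copies and its probe set is of a type that can read related transcripts, so the value is uncertain as to the copy. The membrane anchors SDHC and SDHD differed by −0.02 and −0.09 and were not called. Of their 5 probe sets each, 1 dimmer set of SDHC was called higher, by 0.58 (adjusted p = 0.000122 with every probe set fitted), and 1 of SDHD lower, at −0.19.

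In complex III, UQCRC2, a core protein of the matrix side, read 11.49 on each of the 3 arrays at 37 °C and 11.08, 11.07 and 11.03 at 40 °C. The difference of −0.43 (SE 0.04, adjusted p = 0.000148), a 1.35-fold decrease, was the largest of any member. UQCRQ, a small subunit, rose by 0.16. The partner core protein UQCRC1 differed by −0.07 (SE 0.05) and CYC1, the heme-bearing cytochrome c1, by −0.07 (SE 0.06), neither called. UQCRH and UQCRHL are closely similar copies whose probe sets may read both, so their values, 0.03 and −0.01 without a call, are uncertain. CYCS fell by 0.19 (adjusted p = 0.0118), from 12.11, 12.09 and 12.11 to 11.92, 11.85 and 11.96, and all 3 of its probe sets were called lower, at −0.19, −0.31 and −0.84.

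Complex IV was the complex with no called member at 40 °C: 0 of 15, with differences from −0.11 (COX6C) to 0.11 (COX8C) and 1 member at an unadjusted p under 0.05. The dim COX8C had a mean of 4.54, just inside the filter. COX4I1, COX5A, COX6A1, COX6B1 and COX7A2, the common forms, differed by −0.05, −0.10, 0.02, −0.05 and −0.02. The forms known from lung (COX4I2), heart and muscle (COX6A2) and testis (COX6B2) differed by −0.07, −0.09 and −0.03. Another, dimmer probe set of COX6B2 was called lower, at −0.16 (adjusted p = 0.0386 with every probe set fitted). Other settings called 1 member lower (50th percentile filter), 2 (quantile normalization) or 3 (eBayes with trend and robust), and none higher. No test compared the complexes with each other.

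In complex V, 1 of 18 members rose and 5 fell. ATP5F1C, the gamma subunit that turns inside the F1 head, read 10.45, 10.40 and 10.45 at 37 °C and 10.06, 10.06 and 10.17 at 40 °C. It fell by 0.34 (SE 0.05, adjusted p = 0.00109), and each of its 3 probe sets was called lower. The other F1 head members were not called, with ATP5F1A and ATP5F1B at −0.07 and −0.02 and ATP5F1D at −0.16. Of the 3 probe sets of ATP5F1D, 1 was called lower, at −0.18 (adjusted p = 0.0404 with every probe set fitted). ATP5PB and ATP5PF of the peripheral stalk, which holds the head still, fell by 0.19 and 0.15, and all 4 stalk members had negative differences (median −0.14).

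ATP5MJ and ATP5MK, small membrane subunits, fell by 0.15 each, while ATP5MF, another membrane subunit, rose by 0.17. The ATP5MF call was lost without replicate 1 at 37 °C or replicate 2 at 40 °C (highest adjusted p = 0.0699) and with its probe sets averaged. The c-ring genes ATP5MC1, ATP5MC2 and ATP5MC3, which encode the same mature protein, differed by 0.06, 0.06 and −0.08 without a call. ATP5IF1, the inhibitor factor that stops the enzyme from consuming ATP, differed by 0.00 (SE 0.04). Of its 4 probe sets, the dimmest (mean 6.16) was called higher, by 0.68 (adjusted p = 0.000265 with every probe set fitted). The others were not called. The count of 5 decreases was 2 without any 1 of 5 arrays (each replicate at 37 °C, and replicates 2 and 3 at 40 °C). Without replicate 1 at 40 °C it was also 5, but not of the same genes, since ATP5MJ kept its call in 0 of the 6 fits. ATP5F1C and ATP5PB kept their calls in each of these fits.

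**Figure D2:**
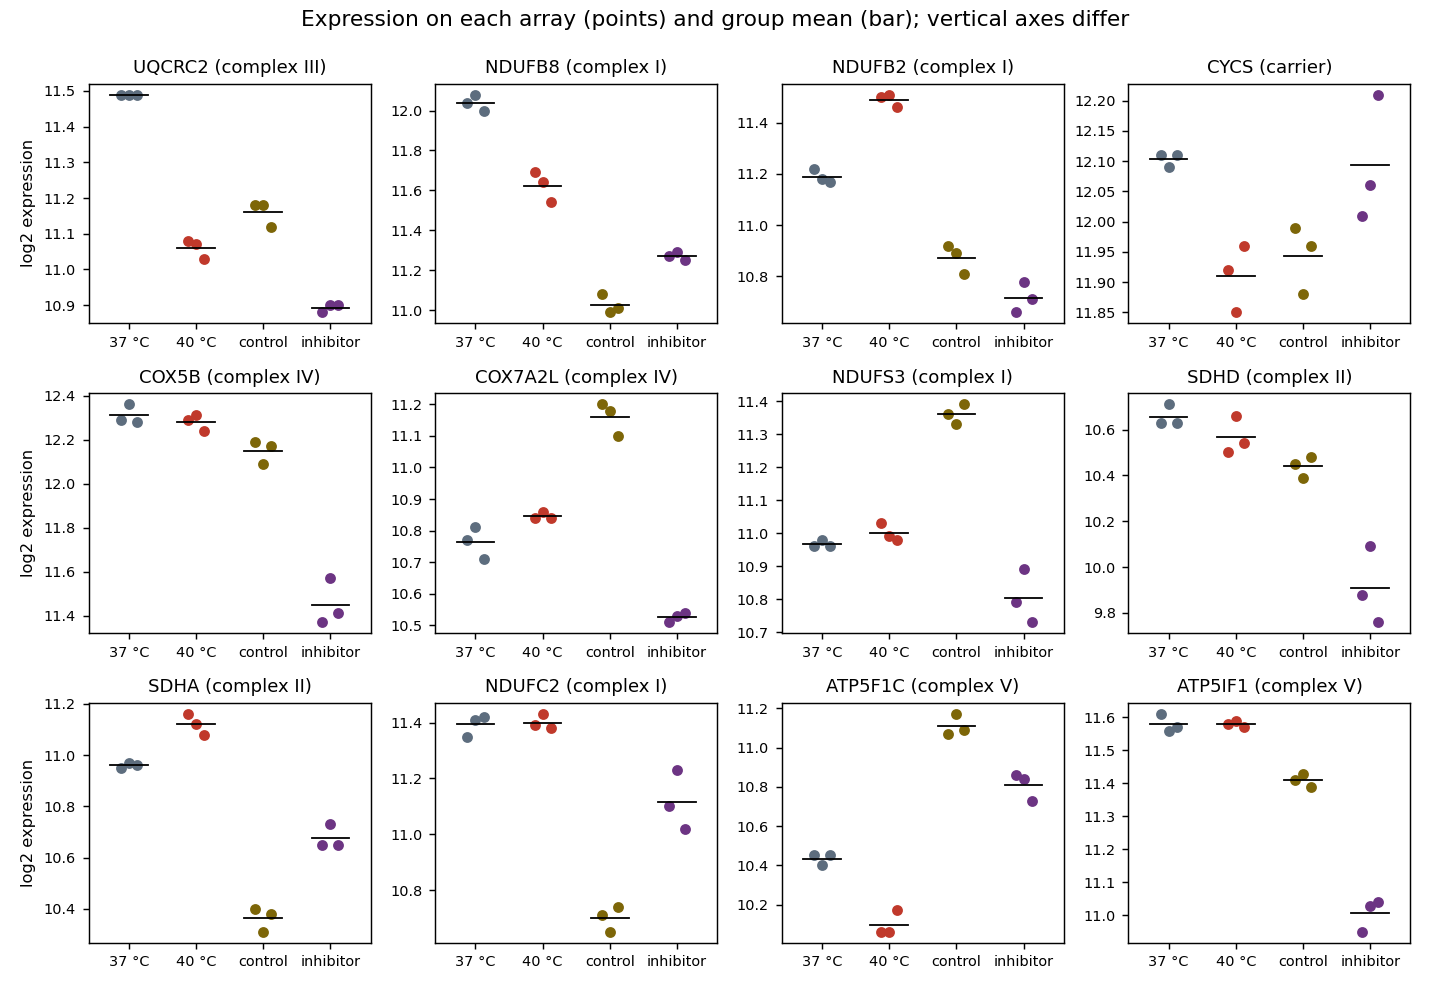
Log2 expression of 12 members on each of the 12 arrays (points) with group means (bars), n = 3 arrays a group; the vertical axes differ and do not start at 0. UQCRC2, NDUFB8 and ATP5F1C are lower at 40 °C than at 37 °C without overlap, COX5B, COX7A2L, NDUFS3, SDHD and ATP5IF1 are lower with inhibitor than in controls without overlap, and NDUFC2 and SDHA are higher with inhibitor.

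The next comparison asked how subunit transcripts differ between inhibitor-treated and control cells, both at 40 °C. Here 8 members rose and 22 fell with inhibitor, 37.0% of the 81, against 45.2% of all genes (25.7% higher and 19.6% lower). By direction, 9.88% of members were higher and 27.2% lower. The median was −0.02 against 0.09 for all genes, and no member reached 2-fold. With quantile normalization 16 members were higher and 20 lower. With trend and robust 43 of the 81 were called (13 higher, 30 lower), against 47.8% of all genes. The count of 30 was 19 (5 higher, 14 lower) without control replicate 3 and 18 (5 higher, 13 lower) without inhibitor replicate 1. With the poly-A spike level as a covariate, added after seeing the data, none of the 81 members was called, 6 had an unadjusted p under 0.05, and 1.78% of all genes were called. The spike levels of the groups do not overlap, and the median SE of members rose from 0.06 to 0.17 in that fit, so spike level and treatment cannot be told apart.

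Complex IV held the largest decreases of any member with inhibitor. COX5B, a zinc-binding subunit on the matrix face, read 12.19, 12.09 and 12.17 in controls and 11.37, 11.57 and 11.41 with inhibitor. The inhibitor arrays lay below all other arrays, and the difference was −0.70 (SE 0.07, adjusted p = 0.000264), a 1.62-fold decrease. COX7A2L, a relative of the COX7A subunits that links complex III to complex IV in supercomplexes, read 11.20, 11.18 and 11.10 in controls and 10.51, 10.53 and 10.54 with inhibitor. It fell by 0.63 (SE 0.06, adjusted p = 0.000147), and its other probe set by 0.71. With the spike covariate the differences were −0.73 for COX5B (SE 0.21, adjusted p = 0.142) and −0.62 for COX7A2L (SE 0.17, adjusted p = 0.128).

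Of the remaining complex IV members, COX7B fell by 0.24, the dim COX8C by 0.33 and COX4I1 by 0.19, making 5 of 15 lower (3 without inhibitor replicate 1) and none higher. COX8C passed the filter through the controls, where its mean was 4.87 against 4.33 to 4.54 in the other groups, so its decrease is given as a value and supports nothing. With the 50th percentile filter, which leaves it out, 4 of 13 were lower. The COX4I1 call (adjusted p = 0.0397) kept in 1 of 6 fits that left out an array. COX5A, COX6A1, COX6B1 and COX7A2 were not called, at −0.02, 0.04, −0.003 and −0.06. Thus members of 1 enzyme ranged from −0.70 to 0.24. The upper end was COX6B2, the testis form, with a mean of 6.18 and no call. Among the common forms the highest was COX8A, at 0.11 and not called. COXFA4, the current symbol of NDUFA4, a complex IV subunit whose symbol lies outside the rule, had means of 12.66 in controls and 12.44 with inhibitor, a called difference of −0.23 (adjusted p = 0.0222), and −0.11 (not called) at 40 °C.

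In complex I, 5 of 35 members rose and 9 fell with inhibitor. NDUFS3, a core subunit near the ubiquinone site, read 11.36, 11.33 and 11.39 in controls and 10.79, 10.89 and 10.73 with inhibitor, a difference of −0.56 (SE 0.06, adjusted p = 0.000404). NDUFA5, an accessory subunit beside it, fell by 0.54, from 9.38, 9.25 and 9.34 to 8.68, 8.90 and 8.76. NDUFS4, an accessory subunit needed for a stable NADH-binding module, fell by 0.46, from 11.28, 11.23 and 11.26 to 10.80, 10.87 and 10.72. For these 3 genes the groups did not overlap, and controls were also higher than the cells at 40 °C, by 0.36, 0.55 and 0.57. NDUFB9 and NDUFB5 fell by 0.37 and 0.36, and NDUFS1 by 0.28. All 3 tested probe sets of NDUFB9 and both of NDUFB5 were called lower.

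The increases in complex I were in accessory subunits. NDUFC2 read 10.71, 10.65 and 10.74 in controls and 11.10, 11.23 and 11.02 with inhibitor, a rise of 0.42 (SE 0.07, adjusted p = 0.00256). NDUFA8 rose by 0.35 and NDUFS6, a zinc-binding subunit, by 0.30, each without overlap. NDUFV1 differed by 0.12 (SE 0.05) and was not called. The 9 decreases were 6 without control replicate 3 or without inhibitor replicate 1.

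The members of complex II moved apart. SDHD, a membrane anchor, read 10.45, 10.39 and 10.48 in controls and 9.88, 10.09 and 9.76 with inhibitor, a fall of 0.53 (SE 0.09, adjusted p = 0.00248). Of its 5 probe sets 4 were called lower, 2 of them with identical values. SDHA rose by 0.31 (SE 0.06, adjusted p = 0.00388), from 10.40, 10.31 and 10.38 to 10.65, 10.73 and 10.65, and both tested probe sets were called. SDHC differed by 0.05 (SE 0.05) and was not called, while 2 of its 5 probe sets were called higher, at 0.27 and 0.21.

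In complex III, 1 of 9 members rose and 4 fell. UQCRC2 read 11.18, 11.18 and 11.12 in controls and 10.88, 10.90 and 10.90 with inhibitor, a fall of 0.27 (SE 0.05, adjusted p = 0.00543). UQCRC1, UQCRB and UQCR11 fell by 0.20, 0.19 and 0.23, and UQCRQ rose by 0.18. UQCRC2 was the member of complex III called in each of the 6 fits that left out an array. The 4 decreases were 1 without control replicate 3 or inhibitor replicate 1, 2 without control replicate 1 or 2 or inhibitor replicate 3, and 1 with arrays centred on their medians. CYC1 differed by 0.02 and CYCS by 0.15 (SE 0.07), neither called.

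In complex V, 1 of 18 members rose and 3 fell with inhibitor. ATP5IF1 read 11.41, 11.43 and 11.39 in controls and 10.95, 11.03 and 11.04 with inhibitor, a fall of 0.40 (SE 0.06, adjusted p = 0.00102), and 3 of its 4 probe sets were called lower. ATP5F1C fell by 0.30, from 11.07, 11.17 and 11.09 to 10.86, 10.84 and 10.73, again in each of its 3 probe sets. ATP5ME, a membrane subunit, fell by 0.20. ATP5MC2 rose by 0.22, from 11.72, 11.64 and 11.66 to 11.92, 11.88 and 11.88, and kept its call in 3 of 6 fits leaving out an array. ATP5F1A, ATP5F1B, ATP5MC1 and ATP5MC3 differed by −0.09, −0.003, 0.10 and −0.01 without a call. The single increase was not called without control replicate 2 or 3 or inhibitor replicate 1.

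**Figure D3:**
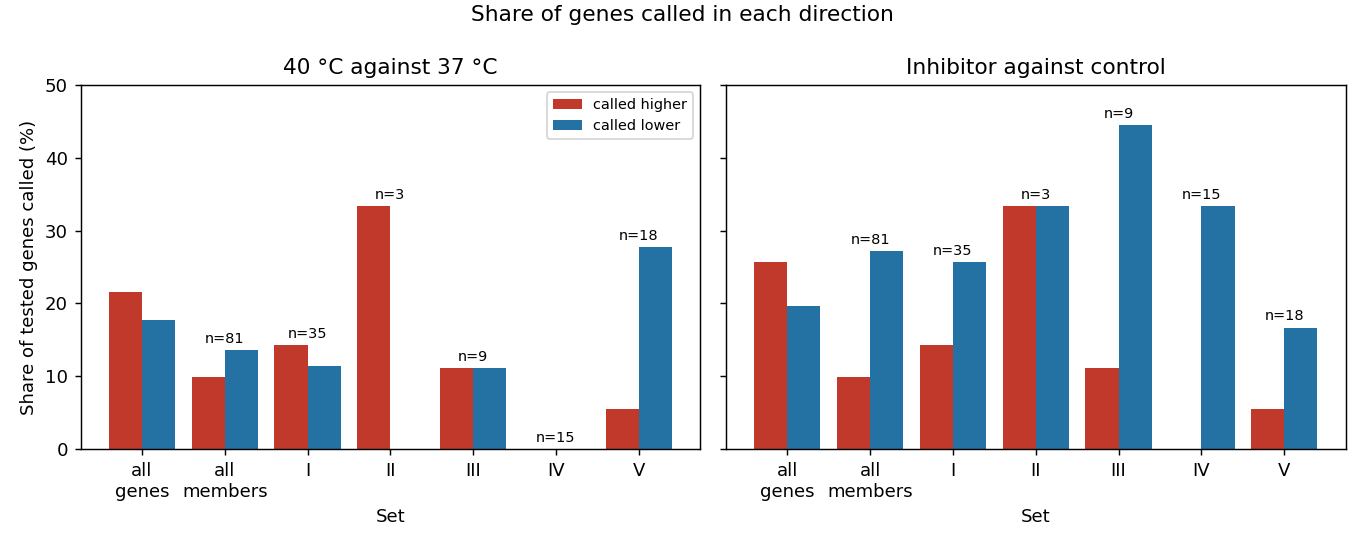
Share of tested genes called higher (red) and lower (blue) at an adjusted p under 0.05, for all 13909 genes, the 81 members and complexes I to V, with the number of members tested above each pair of bars. At 40 °C complex IV has no call in either direction, and with inhibitor 33.3% of complex IV (the dim COX8C among them) and 44.4% of complex III members are called lower, against 19.6% of all genes. These are 5 of 15 and 4 of 9 members. Without inhibitor replicate 1 they are 3 of 15 and 1 of 9.

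Both experiments called 7 of the 81 members (8.64%), of which 6 moved in the same direction. Of all genes, 3163 of 13909 (22.7%) were called in both, 1913 of them (60.5%) in the same direction. UQCRC2, ATP5F1C and NDUFS1 were lower in both, and SDHA, NDUFA8 and UQCRQ higher in both. The calls of UQCRC2 and ATP5F1C held in both experiments without any 1 array, and those of NDUFS1, SDHA, NDUFA8 and UQCRQ each ended at 40 °C without at least 4 of the 6. With inhibitor, SDHA and NDUFA8 kept their calls in 6 of 6 such fits, NDUFS1 in 2 and UQCRQ in 1. NDUFB8 was −0.42 at 40 °C and 0.24 with inhibitor, where it read 11.08, 10.99 and 11.01 in controls and 11.27, 11.29 and 11.25 with inhibitor (adjusted p = 0.0097). Its second probe set was called lower at 40 °C and was at 0.11 without a call with inhibitor. The experiments share no arrays. Across the 81 members the differences had a Pearson r of 0.137 and a Spearman rho of 0.201, against 0.100 and 0.108 across all 13909 genes, as a description over genes that are not independent replicates and share their arrays.

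**Figure D4:**
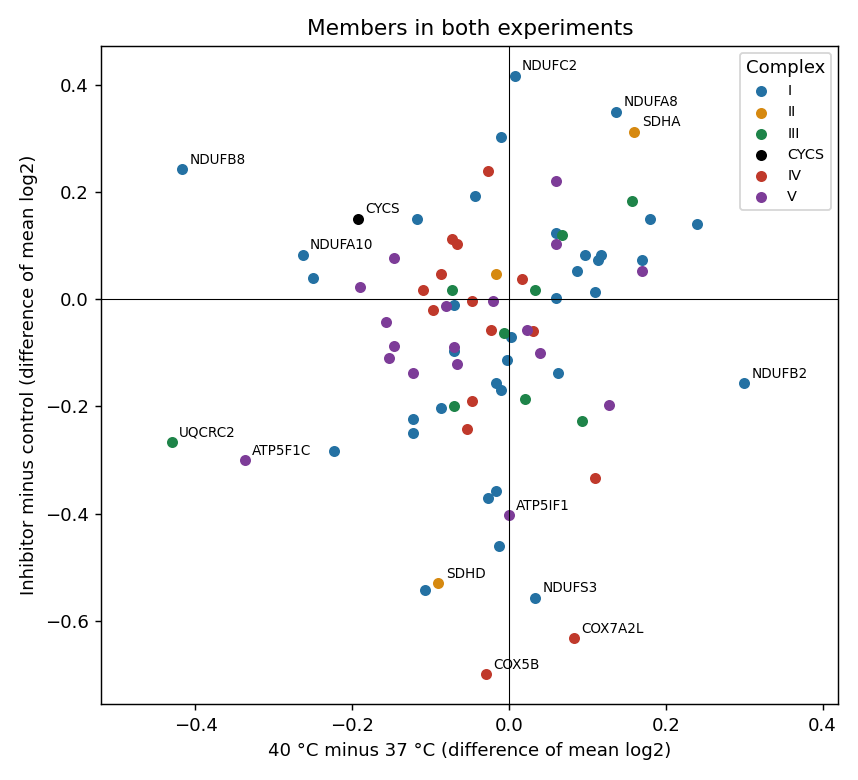
Difference of mean log2 at 40 °C against 37 °C (horizontal) and with inhibitor against control (vertical) for the 81 tested members, coloured by complex, with 14 members named. UQCRC2 and ATP5F1C lie at lower left, SDHA and NDUFA8 at upper right, NDUFB8 alone at far upper left, and COX5B and COX7A2L at the bottom near 0 on the horizontal axis.

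The difference between the responses was itself tested on all 12 arrays. It was called for 28 of 81 members (34.6%), with 12 more positive and 16 more negative with inhibitor than with heat, against 44.2% of all genes (23.1% and 21.1%). With quantile normalization the split was 17 and 15. COX7A2L (−0.72), COX5B (−0.67), NDUFS3 (−0.59) and NDUFB2 (−0.46) were the most negative. NDUFB8 at 0.66 (SE 0.07), NDUFC2 at 0.41, NDUFA10 at 0.35 and CYCS at 0.34 were the most positive. ATP5IF1 had a difference of −0.40 and SDHD of −0.44. For ATP5F1C the difference of responses was 0.04 (95% interval −0.13 to 0.20) and for SDHA 0.15 (0.01 to 0.30, adjusted p = 0.0773), neither called.

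Controls of the inhibitor experiment and cells of the temperature experiment at 40 °C were both at 40 °C, so their levels can be set side by side. Of the 81 members, 16 were higher and 46 lower in controls (76.5%, against 74.8% of all genes, 36.9% higher and 37.9% lower), with a median of −0.17 against 0.00. Experiment, nucleofection and sorting cannot be told apart in this comparison, which shares its arrays with both others. ATP5F1C was 1.01 higher in controls (2.02-fold), the single member past 2-fold, and UQCRC1 was 0.89 and UQCRB 0.64 higher. The ATP5F1C value depends on the probe set. A set nearly as bright (mean 10.48) read 10.54 at 40 °C and 10.42 in controls, and a dimmer one 7.97 and 8.66. Dimmer sets of UQCRB read 7.40 and 7.40 at 40 °C, and 7.32 and 7.41 in controls. SDHC (−0.86), NDUFA8 (−0.77), SDHA (−0.76) and NDUFC2 (−0.70) were lower. UQCRC1 read 10.61, 10.66 and 10.52 at 40 °C and 11.41, 11.50 and 11.56 in controls, and SDHC 11.60, 11.77 and 11.67 against 10.84, 10.80 and 10.82. By complex, 23 of 35 members of complex I were lower and 7 higher, and 11 of 18 of complex V were lower and 2 higher. In complex III 2 of 9 were lower and 2 higher, and in complex IV 8 of 15 were lower and 5 higher. The 8 decreases of complex IV were 5 without control replicate 3 or any 1 array at 40 °C, and 3 with quantile normalization. Its 5 increases included the tissue forms COX4I2, COX6A2 and COX8C, at means of 4.87, 6.04 and 4.54. COX8C passed the filter through the controls, so its increase supports nothing. With the spike covariate 9 were higher and 31 lower.

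The levels in the 4 groups thus did not follow 1 order. Mean log2 of SDHA was 10.96 at 37 °C, 11.12 at 40 °C, 10.36 in controls and 10.68 with inhibitor. The chosen set of ATP5F1C ran from 10.43 and 10.10 to 11.11 and 10.81. Another bright set of ATP5F1C read 10.92, 10.54, 10.42 and 10.04, so the order for this gene depends on the probe set. COX7A2L was 10.76 and 10.85 in the temperature experiment, 11.16 in controls and 10.53 with inhibitor, so that controls were highest. COX5B, at 12.31, 12.28, 12.15 and 11.45, was not called different between 37 and 40 °C or between 40 °C and controls, and was lower with inhibitor.

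Several members have probe sets that disagree. The 84 members have 194 probe sets, and 49 members have more than 1 that was tested. Probe sets called in opposite directions were found for 1 member at 40 °C (ATP5MJ) and for 4 with inhibitor (ATP5MJ, ATP5PB, COX4I1 and UQCR11). For ATP5MJ at 40 °C the chosen set was at −0.15 and dimmer sets at 0.63 and 0.18. For COX4I1 with inhibitor the bright sets were at −0.19 and −0.22, and a dim set at 0.63. The chosen COX4I1 set, called among 1 set per gene, was not called when every probe set was fitted on its own (adjusted p = 0.0574). The same held for the chosen sets of UQCRB (adjusted p = 0.0667) and UQCRQ (adjusted p = 0.0522) with inhibitor and of NDUFB11 at 40 °C (adjusted p = 0.0533). For UQCR11 with inhibitor the sets were at −0.23 and, for a dimmer set, 0.29. For ATP5PB with inhibitor the chosen set was at 0.02, another bright set at −0.21 and the dim sets at 0.42 and 0.39. Over all tested probe sets of members, 22 of 176 were higher and 28 lower at 40 °C, and 19 and 44 with inhibitor, against 19.9%, 17.6%, 21.3% and 22.0% of all probe sets in that fit.

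Assembly factors, which build the complexes without staying in them, were called in both directions. At 40 °C, where 21.6% of all genes were called higher and 17.7% lower, 4 of 16 complex I assembly factors rose and 3 fell. ECSIT (0.50), NDUFAF3 (0.30) and TMEM186 (0.30) rose, and NUBPL (−0.34), NDUFAF7 (−0.30) and NDUFAF6 (−0.14), named after their values were seen, fell. Of 6 complex III factors 3 rose and 1 fell. BCS1L, which inserts the Rieske protein into complex III, rose from 7.81 to 8.63 (0.82, SE 0.06), UQCC2 rose by 0.39, and TTC19 fell by 0.38. Of 21 complex IV factors 7 rose and 4 fell, and COX11, a copper chaperone of the enzyme, had mean levels of 8.49 at 37 °C and 7.31 at 40 °C, a 2.27-fold decrease (−1.18, SE 0.05). COX20 fell by 0.49 and COX14 rose by 0.28. Complex II factors numbered 2 higher (SDHAF1 0.23, SDHAF4 0.15) and 1 lower (SDHAF3 −0.34) of 4, and complex V factors 1 higher (ATPAF1 0.44) of 3.

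With inhibitor, 25.7% of all genes were called higher and 19.6% lower, and 5 of 6 complex III factors rose and none fell: TTC19 by 0.54, LYRM7 by 0.45 and BCS1L by 0.41 among them. The median of that list was 0.36, against 0.09 for all genes. TMEM70, which helps build complex V, had means of 11.35 in controls and 10.37 with inhibitor, a 1.97-fold decrease (−0.98, SE 0.05), and was the 1 of 3 complex V factors called. Of 16 complex I factors 3 rose (ECSIT 0.57, NDUFAF8 0.38) and 4 fell (NDUFAF6 −0.58), and of 21 complex IV factors 6 rose (COA7 0.58) and 3 fell (COA6 −0.38, CMC1 −0.43). Of 4 complex II factors none rose and 2 fell, SDHAF3 by 0.48 and SDHAF4 by 0.43.

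Regulators of mitochondrial biogenesis were called in both directions. At 40 °C, 3 of 16 rose and 5 fell, among them POLG (0.52), the mitochondrial DNA polymerase, POLRMT (0.44), the RNA polymerase, and SSBP1 (−0.34), a DNA-binding protein. With inhibitor 7 rose and 3 fell, among them PPRC1 (0.68), a coactivator of nuclear respiratory factors, TWNK (0.67), the mitochondrial helicase, and POLG (0.53). Of 12 tricarboxylic acid cycle genes, 3 rose and 3 fell at 40 °C (DLD −0.38, IDH3B −0.39, DLST 0.28), and 3 rose and 6 fell with inhibitor (DLST −0.83, SUCLG2 −0.71, IDH2 −0.51). Of 7 carriers, 1 rose and 2 fell at 40 °C (SLC25A3 −0.16, UCP2 −0.23, VDAC1 0.16). With inhibitor 5 rose and 1 fell, with SLC25A4, the heart-type ADP/ATP carrier, at 0.89, VDAC3, a pore of the outer membrane, at 0.35 and UCP2, an uncoupling protein, at −0.83.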

How the data were processed

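The deposited values, 49395 probe sets by 12 arrays, are log2 expression, a unit read from their range. Total RNA was extracted with Trizol, per the labels' protocols. How the authors normalized and summarised the arrays, with which software and build, is not given in the sources used here. Gene names came from the platform's annotation, in which 44988 probe sets have 1 symbol. Each gene was represented by its brightest probe set, and 13909 genes at or above the 30th percentile were tested. Tests were two-sided and used lmFit and eBayes of limma (3.58.1, under R 4.3.3) without a block. P-values were adjusted by Benjamini-Hochberg over all genes tested, with a threshold of 0.05. The members, lists, motifs and comparisons were chosen with earlier results of these data known. Up to 3 called members without overlap were named per complex and direction in each comparison, as were catalytic subunits and isoforms, members called in both experiments or with opposing probe sets, and up to 3 genes per list. An exact permutation test of 3 against 3 arrays cannot go below 0.1 and was not run.

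On simulated data with the means and spreads of the 13909 genes, 50 genes each were changed by 0.25, 0.5, 1 and 2 (log2). Of these, 18%, 62%, 100% and 100% were recovered for temperature, and 12%, 68%, 100% and 100% for the inhibitor. In the data far more genes were called (39.3% and 45.2%), which makes the adjusted threshold less strict, and members are brighter than most genes. The simulated shares therefore do not give the recovery for members. Alternatives were a joint fit, the block, other filters, averaged probe sets, quantile normalization, centring, eBayes with trend and robust, and leaving out each array; the spike covariate was added after seeing the data. Motif search used Python 3.11.15, and plots used matplotlib 3.10.9 with pandas 2.3.3.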

Additional observations from a re-analysis of the deposited data

How the results depend on the processing

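Of 19 members called at 40 °C, 9 kept their call under each of the 14 other settings run (without the spike covariate), and of 30 called with inhibitor, 14 did. Leaving out 1 array gave 9 to 15 called at 40 °C (2 to 6 higher, 7 to 12 lower) and 18 to 28 with inhibitor (5 to 8 higher, 13 to 21 lower). Under a replicate block 12 were called at 40 °C (5 higher, 7 lower) and 16 with inhibitor (4 higher, 12 lower). Same-number correlations of the deviations were −0.13, −0.10 and 0.23 at 40 °C and −0.19, −0.60 and −0.15 with inhibitor. Of these, 1 of the 3 at 40 °C and none with inhibitor was the best for its array. Between controls and 40 °C, from different experiments, they were 0.24, 0.16 and −0.10, with replicates 1 and 2 the best for their arrays. With 3 arrays a group such correlations cannot decide whether the replicate numbers pair the samples. Centring left 5 higher at 40 °C. With trend and robust, 34 of 81 were called at 40 °C (13 higher, 21 lower), against 43.7% of all genes. With inhibitor that setting called 43 of 81 (13 higher, 30 lower), against 47.8% of all genes. The joint fit had 14 higher with inhibitor and quantile normalization 16. At 40 °C the share of members called was below that of all genes in every setting, most narrowly with trend and robust. With inhibitor it was above that of all genes with trend and robust, and below it in the other settings. With the spike covariate 0 were called with inhibitor (0 higher, 0 lower), and 40 between controls and 40 °C (9 higher). The count of members with different responses stayed within 1.5 times under each alternative. Averaging all probe sets per gene moved ATP5IF1 at 40 °C from 0.00 to 0.19. It turned the sign at 40 °C of ATP5MJ (0.074) and NDUFA8 (−0.028). With inhibitor it turned that of COX4I1 (0.074), NDUFS4 (0.027) and UQCR11 (0.032). Between controls and 40 °C, 6 called members turned. These were ATP5PB (0.015), COX6A1 (0.14), COX7A2 (0.13), UQCRB (−0.003), NDUFB3 and NDUFB6. CYCS, not called there, also turned (−0.20), as did the response difference of NDUFS4 (0.005). Dim probe sets enter that mean with equal weight. The causes of the other changes were not tested. At 40 °C and with inhibitor most called differences were under 0.5 on the log2 scale. The simulation does not give the share of such differences that would be found in members, because it changed few genes. A difference that was not called may still lie below what 3 arrays a group can show.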
